A study of Mus musculus with 6 samples.

Results

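AP-1 and immediate early factors include the transcription factors that cells switch on first after a stimulus. Here 10 of their genes were read out in cultured mouse renal tubular epithelial cells (mTECs). They were the genes whose GENCODE M21 symbol is Fos, Fosl1, Fosl2, Jun, Junb, Jund, Atf3, Egr1, Myc or Klf6, and all 10 were found among the 22442 genes of the expression table. The RNA-seq libraries came from 6 cultures, all grown in DMEM/F12 with fetal bovine serum and all exposed for 24 h to 20 μg/ml of LPS (lipopolysaccharide from bacteria). Transfection came first: 3 cultures received a negative control and 3 an RNA directed against Stat3, and no culture without LPS was among them, so induction of these genes by LPS was not measured. The study's methods place an overnight starvation in low-serum medium before LPS, which the labels do not mention. The paper describes mTECs as an immortalised murine line and the silencing RNA as an shRNA, whereas according to the sample labels the cells were sorted magnetically and the RNA was an siRNA.

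AP-1 is a dimer of basic leucine zipper proteins in which a Jun protein pairs with a Fos, ATF or second Jun protein and binds a short palindromic DNA element. Growth factor, stress and Toll-like receptor signals reach these genes through MAP kinases and the serum response factor, without a need for new protein synthesis. The transcripts are short-lived, and in kidney tubules they are known to rise rapidly after ischaemic or toxic injury.

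The promoters of Fos, Jun and Klf6, members whose groups do not overlap below, are shown first. AP-1, CREB/ATF, STAT and serum response factors can act on letters before a start site, and any sites outside the windows were not read. Each sequence holds the 250 bases before the RefSeq start of the gene (assembly GRCm38.p6), 5′ to 3′ on the strand of the gene, and capitals mark motif matches. They cover chr12:85473640-85473889 on the plus strand for Fos, chr4:95052223-95052472 on the minus strand for Jun and chr13:5861239-5861488 on the plus strand for Klf6.
Fos: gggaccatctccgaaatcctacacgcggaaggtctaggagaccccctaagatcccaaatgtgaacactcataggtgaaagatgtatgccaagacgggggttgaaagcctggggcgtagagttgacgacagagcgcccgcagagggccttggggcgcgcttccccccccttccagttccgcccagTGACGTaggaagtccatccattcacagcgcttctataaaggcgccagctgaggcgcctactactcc
Jun: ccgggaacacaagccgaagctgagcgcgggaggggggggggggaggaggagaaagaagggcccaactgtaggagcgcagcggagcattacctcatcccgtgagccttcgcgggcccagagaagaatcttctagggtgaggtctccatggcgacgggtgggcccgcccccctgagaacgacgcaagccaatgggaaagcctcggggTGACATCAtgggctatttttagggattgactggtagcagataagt
Klf6: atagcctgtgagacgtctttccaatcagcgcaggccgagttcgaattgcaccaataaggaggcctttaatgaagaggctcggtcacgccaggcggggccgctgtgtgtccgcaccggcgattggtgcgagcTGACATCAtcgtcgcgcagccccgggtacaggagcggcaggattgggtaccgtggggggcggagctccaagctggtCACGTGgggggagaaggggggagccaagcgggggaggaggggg

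Motifs were searched on both strands in 7 members with a window, namely Atf3, Fos, Fosl2, Jun, Junb, Jund and Klf6. For Fosl1 and Myc no window was available, and Egr1 was left out of the search whether or not it had one. In none of these 7 windows was there a match to the AP-1 site TGANTCA, to the full cyclic AMP response element TGACGTCA, to the STAT site TTCNNNGAA or to the CArG box of serum response factor. Among all 32851 windows of 250 bases, these letters were held by 6.75%, 1.55%, 7.02% and 1.47%. A pair of looser forms of the response element were added after the windows had been seen, and both include every match to TGACGTCA. TGACNTCA lay 45 to 38 bases before the start of Jun and 119 to 112 bases before that of Klf6, and 7.49% of all windows held it. TGACGT lay 66 to 61 bases before the start of Fos and, on the reverse strand, 8 to 3 bases before that of Atf3, and 6.47% of all windows held it. The E-box CACGTG, the letters that Myc and Max bind, occurred 43 to 38 bases before the start of Klf6 and in 6.02% of all windows. A match is only a run of letters, and a window without one says nothing about the factor. For Junb, Jund, Atf3, Fosl2 and Klf6 the RefSeq start differs from the start of the GENCODE gene given below. The windows of Junb, Jund, Atf3 and Fosl2 cover chr8:84978749-84978998, chr8:70697489-70697738, chr1:191183334-191183583 and chr5:32136222-32136471. Those of Atf3 and Fosl2 lie inside the GENCODE gene, and that of Klf6 ends inside it.

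Stat3, the targeted gene, was measured at 34.6, 31.4 and 35.2 FPKM in the libraries labelled LPS, against 30.8, 35.2 and 34.3 FPKM where the label is Stat3-silenced. FPKM counts the fragments of a gene per kilobase of its length, scaled to the fragment total of the library. The log2 fold change of Stat3 was -0.01 (95% confidence interval -0.17 to 0.14, limma adjusted p = 0.944), or -11.2% to 10.5% in percent. Lower Stat3 RNA was therefore not seen in the libraries labelled Stat3-silenced, and the reason was not tested. The paper reports its Stat3 knockdown in mTECs by real-time PCR and western blot. The groups are called by their labels throughout. Depth was even, at 24084827 to 25422171 fragments per library. The tubular markers were led by the keratins Krt18 and Krt8, at 1227 and 1188 FPKM over the 6 libraries, while the mature tubule markers Slc34a1 and Umod were at 0 in every library. In this bulk RNA, fewer cells that express a gene and less RNA per cell cannot be told apart.

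Differences between the groups were small for these 10 genes. The test was limma on log2(FPKM + 0.1), run over 11723 genes whose mean was 0.5 FPKM or more, with Benjamini-Hochberg adjustment over all of them, and a gene was called at an adjusted p under 0.05. All 10 members passed the filter, and 1 of them, Klf6, was called, in the lower direction. In 4 of the 10, Fos, Fosl1, Jun and Klf6, every library labelled Stat3-silenced lay below every library labelled LPS, and in the other 6 the groups overlapped. Of all tested genes, 3.23% were called and 1.66% were called lower, whereas 23.8% had groups that did not overlap and 13.2% had groups that did not overlap with the Stat3-silenced libraries lower. The median log2 fold change was -0.04 over the members and -0.01 over all tested genes. The plot of levels by library sets these small shifts against the distance between one gene and the next.

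**Figure D1:**
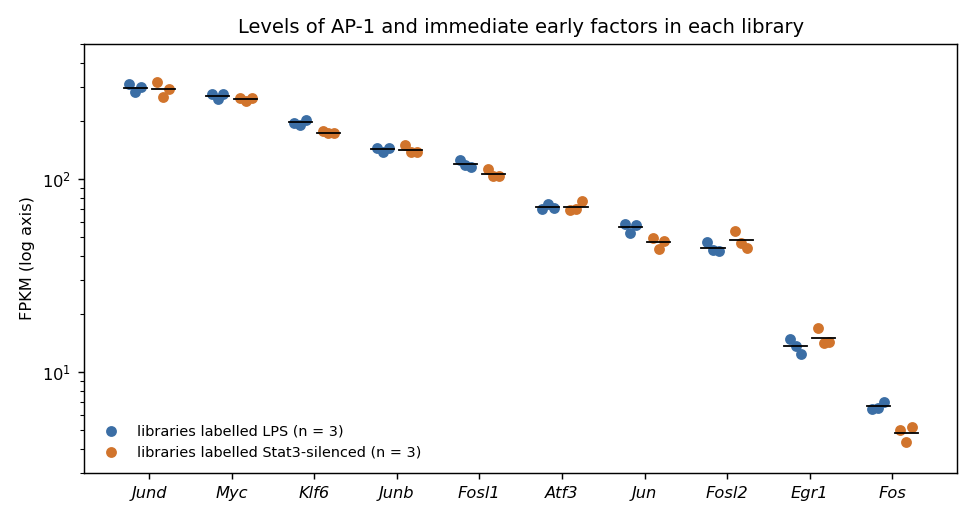
Level of each of the 10 genes in each library, as FPKM on a log axis, with blue points for the 3 libraries labelled LPS, orange points for the 3 labelled Stat3-silenced and a bar at each group mean. The genes run from Jund at 295 FPKM to Fos at 5.75 FPKM, and the orange points lie wholly below the blue ones for Klf6, Fosl1, Jun and Fos.

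After 24 h of LPS the family was dominated by members other than Fos and Jun themselves. Per length, the order of the mean levels over the 6 libraries was Jund (295 FPKM), Myc (265), Klf6 (185), Junb (142), Fosl1 (113), Atf3 (71.8), Jun (51.6), Fosl2 (46.0), Egr1 (14.3) and Fos (5.75). The highest mean was 51.2 times the lowest, and the median tested gene had 21.5 FPKM. Neighbours in this order did not overlap across the libraries, except for Jund with Myc and Jun with Fosl2. Jund exceeded Myc in 6 of 6 libraries, and Jun exceeded Fosl2 in 4 of 6. The whole order was the same in 4 of the 6 libraries.

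Fos encodes the founding Fos protein, a partner of Jun with a very short-lived transcript. In the libraries labelled LPS its levels were 6.44, 6.51 and 7.03 FPKM, and in the libraries labelled Stat3-silenced 5.02, 4.33 and 5.17 FPKM. The highest Stat3-silenced library thus stayed under the lowest LPS library, and the Fos change was the widest of the 10. Its log2 fold change was -0.46 (SE 0.11, 95% confidence interval -0.71 to -0.20), and with a limma adjusted p of 0.0719 it was not called. Fos (chr12:85473890-85477273, build GRCm38, as for all genes named here) rested on only 119 to 196 fragments per library, so that counting alone gives a coefficient of variation of 7.84%, beside 4.81% and 9.26% measured between the libraries of the 2 groups. Over the 10 alternatives with all libraries its adjusted p lay between 0.0689 and 0.141.

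Fosb, the remaining Fos gene and no member of the set, was read alongside it. Its levels were 5.43, 5.07 and 6.05 FPKM against 3.04, 3.93 and 4.19 FPKM, again without overlap. For Fosb the log2 fold change was -0.57 (SE 0.15, 95% confidence interval -0.91 to -0.22, limma adjusted p = 0.0944), and it was not called either.

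Fosl1 and Fosl2 encode the Fos-related antigens Fra-1 and Fra-2, which lack the strong transactivation domain of Fos. Fosl1 was at 125, 118 and 115 FPKM in the libraries labelled LPS, against 113, 104 and 103 FPKM in the libraries labelled Stat3-silenced. These groups came close without overlapping, and the log2 fold change of -0.16 (SE 0.05, 95% confidence interval -0.28 to -0.05) was not called (limma adjusted p = 0.144). At its locus (chr19:5447547-5455946), exons of Ccdc85b on the opposite strand cover 522 of the 819 coding bases of Fosl1, and the sources used here do not say whether the counting used strand. Ccdc85b itself was at 29.0, 28.9 and 31.1 FPKM against 35.5, 33.6 and 32.8 FPKM, higher where Fosl1 was lower, and its part in the Fosl1 value was not tested.

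Fosl2 (chr5:32135801-32157842) had the opposite sign. It was measured at 47.0, 42.6 and 42.1 FPKM against 53.5, 46.6 and 44.0 FPKM, with overlapping groups. The interval of its log2 fold change of 0.13 ran from -0.05 to 0.30, or from -3.55% to 23.4% in percent (limma adjusted p = 0.454). Omission of Stat3-silenced library 1, in which Fosl2 was highest, brought the log2 fold change down to 0.05.

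Among the Jun genes, Jun encodes the strongest transactivator and the main substrate of the JNK kinases. The Jun transcript was at 58.5, 52.3 and 58.0 FPKM in the libraries labelled LPS, against 49.7, 43.4 and 47.9 FPKM in the libraries labelled Stat3-silenced. All Stat3-silenced libraries lay below all LPS libraries. Jun had a log2 fold change of -0.26 (SE 0.07, 95% confidence interval -0.41 to -0.11), a change of -16.5%, and it missed the threshold (limma adjusted p = 0.0835). Jun (chr4:95049034-95052222) has a single coding exon, with TGACNTCA in the window printed above, and gave 1047 to 1459 fragments per library. It would be called with voom on the recovered fragments, at an adjusted p of 0.0435. Of the 10 alternatives with all libraries, Jun was called in 2 and not in 8, with limma adjusted p-values up to 0.197. When 1 library was left out it was called in 0 of 6 runs (up to 0.244).

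Junb and Jund encode the Jun proteins known to restrain growth in many cells. For Junb (chr8:84974484-84978718) the levels were 144, 138 and 145 FPKM against 149, 138 and 138 FPKM. For Jund they were 310, 283 and 299 FPKM against 319, 267 and 291 FPKM. In both, library 1 of the Stat3-silenced group held the highest value and the groups overlapped. On the log2 scale the fold change was -0.01 for Junb (95% confidence interval -0.10 to 0.09, limma adjusted p = 0.957) and -0.03 for Jund (-0.18 to 0.12, adjusted p = 0.868). The intervals reached from -6.97% to 6.51% for Junb and from -11.6% to 8.59% for Jund. The estimate of Junb rose to at most 0.01 without LPS library 1 or 3 or Stat3-silenced library 2 or 3, and that of Jund to at most 0.03 without LPS library 1 or Stat3-silenced library 2. Gm11175, annotated on the strand opposite Jund (chr8:70698949-70700616), covers 877 of its 1023 coding bases, so reads of the pair cannot be told apart if strand was not used.

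**Figure D2:**
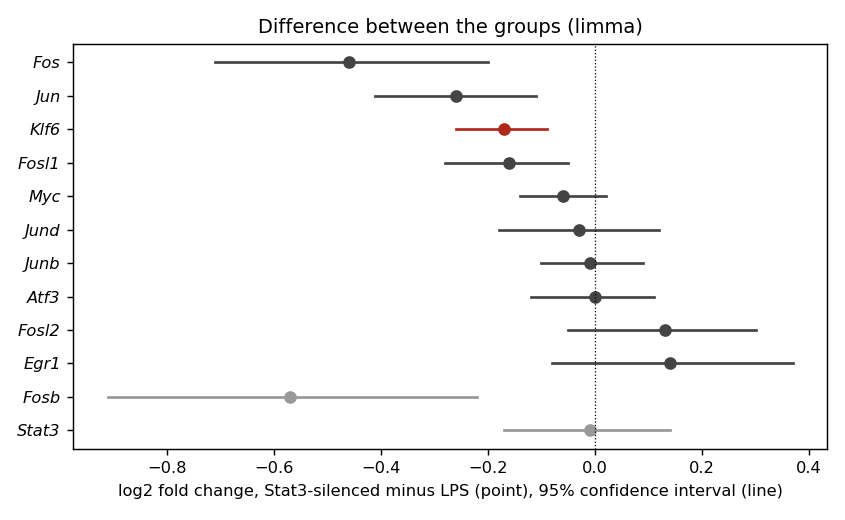
Log2 fold change of each of the 10 genes, and of Fosb and Stat3 in grey, Stat3-silenced minus LPS, as a point with its 95% confidence interval from limma (n = 3 libraries a group). The intervals of Fos, Jun, Klf6, Fosl1 and Fosb lie below 0, and Klf6, in red, is the single member with an adjusted p under 0.05.

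Because FPKM is per length, the make-up of each family could be read within a library. Jund supplied 59.9% ± 0.502 (SD, n = 3) of the summed Jun family level in the libraries labelled LPS and Junb 28.7% ± 0.590, and Jun made up the rest. The share of Jun was 11.4%, 11% and 11.6% in the libraries labelled LPS, against 9.60%, 9.69% and 10.1% in the libraries labelled Stat3-silenced. It differed by -1.56 percentage points with no overlap, whereas the shares of Junb and Jund overlapped. A two-sided exact permutation test gave p = 0.1 for the Jun share, the smallest value that 3 libraries against 3 allow, p = 0.5 for Junb and p = 0.4 for Jund.

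In the Fos family, Fosl1 held 68.0% ± 0.518 of the summed level in the libraries labelled LPS, against 65.4% ± 0.598 in the libraries labelled Stat3-silenced. Fosl2 took 25.6%, 24.7% and 24.8% against 30.7%, 29.3% and 28.1%, a share larger by 4.34 percentage points. Both Fra genes together therefore accounted for most Fos family transcripts, and Fos and Fosb for little. The share of Fos was 3.81% ± 0.318 against 2.97% ± 0.302, and that of Fosb 3.15% ± 0.355 against 2.30% ± 0.491. All 4 shares were without overlap between the groups, each with an exact permutation p of 0.1, and over the 7 shares tested in both families the adjusted p of these 4 and of Jun was 0.14. Shares within a family sum to a fixed total, so they are not independent of each other. The summed levels overlapped between the groups, at 473 to 513 against 448 to 518 FPKM for the Jun family and at 170 to 184 against 156 to 174 FPKM for the Fos family.

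**Figure D3:**
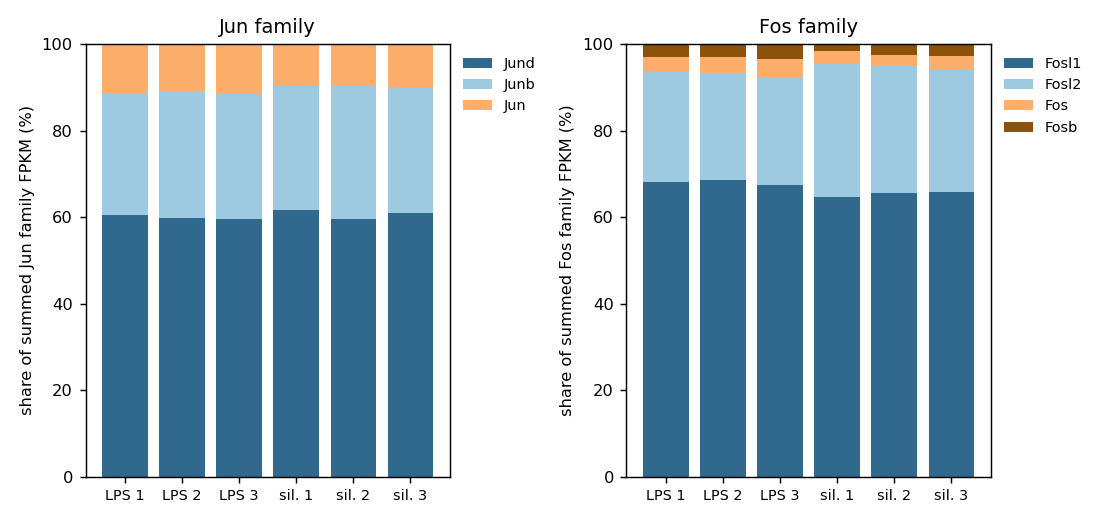
Share of each gene in the summed FPKM of its family, in percent, for the Jun family (left) and the Fos family (right), with 1 bar per library (sil., labelled Stat3-silenced). The Fosl2 segment takes 24.7% to 25.6% of the Fos family in the libraries labelled LPS and 28.1% to 30.7% in the others, and the Jun segment shrinks from between 11% and 11.6% to between 9.60% and 10.1% of the Jun family.

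Klf6, a zinc finger factor of the Krüppel-like family that is induced early after tubular injury, was the called member. Its levels were 195, 190 and 203 FPKM in the libraries labelled LPS, against 177, 172 and 172 FPKM in the libraries labelled Stat3-silenced. Every Stat3-silenced library lay below every LPS library. Klf6 had a log2 fold change of -0.17 (SE 0.04, 95% confidence interval -0.26 to -0.09), a change of -11.4%, with a limma adjusted p of 0.0435 and 4188 to 5019 fragments per library (chr13:5861482-5870394). Its printed window is the one that holds both TGACNTCA and the E-box. The call was close to the threshold, with adjusted p-values between 0.0204 and 0.157 over the 10 alternatives and a loss of the call in 4 of them. It held without LPS library 2 (adjusted p = 0.0464) and was lost without LPS library 1 (0.0619) or 3 (0.172) and without Stat3-silenced library 1 (0.118), 2 (0.136) or 3 (0.155).

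Atf3, a stress-induced ATF protein that dimerises with Jun and often represses its targets, was level between the groups. At chr1:191170296-191218039, it was measured at 70.1, 74.4 and 71.1 FPKM against 68.7, 70.1 and 76.6 FPKM. Both the lowest and the highest of the 6 values belonged to Stat3-silenced libraries. Atf3 had a log2 fold change of 0.00 (SE 0.05, 95% confidence interval -0.12 to 0.11, limma adjusted p = 0.981), which spans -8.08% to 8.23%.

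Egr1, a zinc finger immediate early factor driven by serum response factor, was low beside most of the others. At chr18:34859823-34864984, its levels were 14.9, 13.6 and 12.4 FPKM against 16.8, 14.1 and 14.3 FPKM, overlapping and on 483 to 672 fragments. Its log2 fold change was 0.14 (95% confidence interval -0.08 to 0.37, limma adjusted p = 0.5), and in percent its interval ran from -5.40% to 29.1%. The log2 fold change of Egr1 was 0.06 without Stat3-silenced library 1 and 0.08 without LPS library 3.

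Myc, which drives growth and ribosome synthesis as a dimer with Max, was among the most abundant. The transcript (chr15:61985391-61990374) was at 275, 260 and 275 FPKM against 263, 254 and 261 FPKM. The groups overlapped only through LPS library 2, which fell below 2 of the Stat3-silenced libraries. The log2 fold change was -0.06 (SE 0.04, 95% confidence interval -0.14 to 0.02, limma adjusted p = 0.448), on 8341 to 9320 fragments per library.

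Within the Stat3-silenced group, most of the 10 genes were highest in one library and lowest in another. Stat3-silenced library 1 was the highest of its group in 8 of the 10 and Stat3-silenced library 2 the lowest in 7, where over all tested genes these libraries held the highest and the lowest value in 31.9% and 33.5%. Within the LPS group, library 1 was the highest in 5 of the 10 and library 2 the lowest in 5. Over all tested genes the shares of those were 35.6% and 35.8%. Among the libraries labelled LPS the median coefficient of variation of the members was 4.57%, and among those labelled Stat3-silenced it was 6.39%, beside 6.33% and 5.55% for all tested genes. In 8 of the 10 the coefficient of variation was larger in the Stat3-silenced group, a count that was not made over all tested genes. The members come from the same libraries, so these counts are a description.

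The genes around AP-1 were read from 7 lists of known pathway members, of which 114 of 133 genes were tested. Of these 114, 12 were called (10.5%, beside 3.23% of all tested genes), 5 lower and 7 higher with the Stat3-silenced label. The median log2 fold change of the 114 was -0.01, and the lists were chosen with earlier results of these data known. An unadjusted limma p under 0.05 was found for 35 of the list genes and for 2058 of all 11723 tested genes. The plot of the lists shows that calls in both directions came from the lists of other immediate early genes, of MAP kinase feedback inhibitors and of AP-1 target genes.

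**Figure D4:**
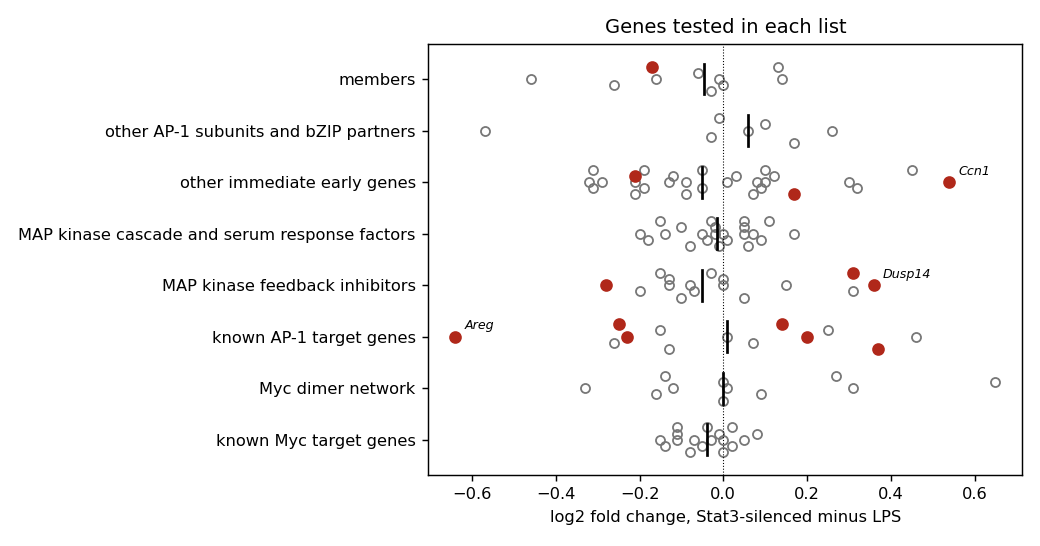
Log2 fold change, Stat3-silenced minus LPS, of each tested gene of the 10 members and of the 7 lists, with filled red points for an adjusted p under 0.05 (limma) and open points for the others, and a bar at each median. Areg, at -0.64, is the lowest of the called genes and Ccn1, at 0.54, the highest, and 4 lists have no red point.

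Of 13 other AP-1 subunits and leucine zipper partners listed, 7 were tested and 0 were called by limma, with 2 at an unadjusted p under 0.05 and 0 called by voom, and the median log2 fold change was 0.06. The small Maf proteins Maff, Mafg and Mafk, which pair with Fos and with NRF2, were at 59.5 to 67.5, 48.2 to 58.3 and 67.8 to 74.7 FPKM over the 6 libraries. Batf3, a partner of Jun known from dendritic cells, fell under the filter, at 0 in all libraries labelled LPS and at 0.113, 0.351 and 0.665 FPKM in the others, on at most 6 fragments.

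Of 33 other immediate early genes, 28 were tested and 3 were called, 1 lower and 2 higher, with a median of -0.05. Ccn1, a secreted matricellular protein, rose from 237 ± 7.54 to 345 ± 6.90 FPKM (SD, n = 3), a log2 fold change of 0.54 (limma adjusted p = 1.27e-04) that was kept in every alternative run. Ccn2, its relative known as connective tissue growth factor, fell from 330 ± 17.7 to 285 ± 3.51 FPKM (log2 fold change -0.21, adjusted p = 0.0359). Gadd45b, a stress protein that binds MAP kinase kinases, rose from 263, 267 and 269 FPKM to 307, 304 and 291 FPKM (log2 fold change 0.17, adjusted p = 0.0345). The call of Ccn2 was lost without LPS library 3 or any 1 of the Stat3-silenced libraries (adjusted p up to 0.128) and that of Gadd45b without any 1 of the 6 libraries (up to 0.149).

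The kinases and serum response factors upstream of AP-1 gave 0 calls among 22 tested genes of 24 by limma, with 2 at an unadjusted p under 0.05 and 0 by voom. Their log2 fold changes lay between -0.20 and 0.17. Of their feedback inhibitors, all 16 were tested and 3 were called. Dusp6, the phosphatase that dephosphorylates ERK in the cytoplasm, rose from 106 ± 2.28 to 131 ± 4.38 FPKM (log2 fold change 0.31, limma adjusted p = 0.00438). Dusp14 rose from 92.1 ± 5.51 to 118 ± 1.95 FPKM (log2 fold change 0.36, adjusted p = 0.00605). Among the 10 alternatives with all libraries, each of these calls was lost in 1, with an adjusted p of 0.0613 for Dusp14 and 0.05 for Dusp6. Dusp4, a nuclear phosphatase of MAP kinases, fell from 94.5 ± 6.39 to 77.9 ± 2.28 FPKM (log2 fold change -0.28, adjusted p = 0.0355), a call lost without any 1 library other than LPS library 2 (up to 0.141).

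Among 18 known AP-1 target genes, 13 were tested and 6 were called, 3 in each direction, with a median of 0.01. The share called was 46.2%, beside 3.23% of all tested genes, in a list chosen with earlier results known. Areg, the EGF receptor ligand amphiregulin, fell from 44.9 ± 3.22 to 28.8 ± 1.43 FPKM (log2 fold change -0.64, limma adjusted p = 0.00157). This call was kept in every alternative run, and 3 others were closer to the threshold. Cd44, a hyaluronan receptor, fell from 92.3 ± 3.82 to 77.6 ± 4.27 FPKM (adjusted p = 0.0403), and Timp1, a metalloproteinase inhibitor, fell from 60.1 ± 1.63 to 51.3 ± 1.26 FPKM (adjusted p = 0.0288). Plaur, the urokinase receptor, rose from 155 ± 4.90 to 178 ± 4.16 FPKM (adjusted p = 0.0313). The call of Cd44 was lost without any 1 of the 6 libraries, and those of Timp1 and Plaur without any 1 library other than LPS library 1, with adjusted p-values up to 0.134, 0.127 and 0.128.

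Around Myc, no gene was called. The dimer network of Max and its other partners had 11 of 12 genes tested, 0 called by limma, 2 at an unadjusted p under 0.05 and 0 called by voom, with a median log2 fold change of 0.00. Max, the obligate partner, was at 70.7 to 76.3 FPKM over the 6 libraries. Of 17 known Myc target genes, all were tested and 0 were called by limma, with 5 at an unadjusted p under 0.05 and 2 called by voom. Over all genes tested by voom, 598 of 11722 were called. The median of the Myc targets was -0.04, and in 5 of them the Stat3-silenced libraries lay wholly lower and in 0 wholly higher. Of all tested genes, 13.2% had Stat3-silenced libraries wholly lower and 23.8% had no overlap in either direction. Activity of Myc was not tested.

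Markers of other cell types lay far below the tubular keratins in all libraries. The pan-leukocyte gene Ptprc was between 0.372 and 1.08 FPKM, and the summed level of 8 leukocyte markers was 58.6 to 65.1 FPKM in the libraries labelled LPS, against 61.6 to 74.9 FPKM in the libraries labelled Stat3-silenced, led by Csf1r. Csf1r was called higher, from 24.4 ± 2.74 to 33.3 ± 0.583 FPKM (limma adjusted p = 0.0208), and it was 1 of 5 tested leukocyte markers. This call was lost without LPS library 3 or any 1 of the Stat3-silenced libraries (adjusted p up to 0.0902). Endothelial markers, led by Cdh5, summed to 2.31 to 4.29 against 2.71 to 4.46 FPKM. Fibroblast and pericyte markers, led by Dcn, summed to 25.0 to 32.3 against 17.7 to 31.4 FPKM. Tubular markers summed to 3821 to 3895 against 3810 to 3862 FPKM. Of these markers, 5 of 12 tested were called (41.7%, beside 3.23% of all tested genes). Krt18 was lower and the tubule genes Cdh16, Pax2, Pax8 and Aqp1 were higher. The calls of Pax2 and Pax8 were kept whichever library was left out. Those of Krt18, Cdh16 and Aqp1 were lost without LPS library 3 or Stat3-silenced library 3, that of Krt18 also without LPS library 2 or Stat3-silenced library 1 or 2, and that of Aqp1 also without Stat3-silenced library 2 (adjusted p up to 0.159, 0.0579 and 0.0867). The part of cell make-up in the values of the 10 genes was not tested.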

How the data were processed

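RNA-seq was read from 3 libraries labelled LPS and 3 labelled Stat3-silenced, and each library is 1 value per group in every test. The authors deposited FPKM values, 1 per gene and library, and the submitters' processing notes list Bowtie 0.12.2, HISAT2 2.0 and StringTie 1.3.0 without their roles. Those notes list builds of more than 1 species, so coordinates here are those of GENCODE M21 (GRCm38), matched by Ensembl identifier for 22399 of 22442 genes. Fragments behind the FPKM values were recovered from coding lengths, with 97.7% of 16837 genes above 0 whole to within 0.0001 of a fragment.

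Groups were compared with limma 3.58.1 in R 4.3.3 (lmFit, eBayes with trend, no covariates), and single values with two-sided exact permutation tests over the 20 label assignments. Percent changes were taken from the log2(FPKM + 0.1) scale, which understates changes of low genes. Nothing states how the cultures of a group were separated, so p-values measure the spread between these samples. The fit was tested on simulated data whose changes were larger than any log2 fold change given here, so that run does not bear on small differences. Figures were drawn with matplotlib 3.10.9 in Python 3.11.15.

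The members and lists were chosen with earlier results of these data known. The text names all members, Stat3, Fosb, at most 5 called genes of each list by absolute log2 fold change and the most abundant gene of each marker list. Krt8, Ptprc, Slc34a1, Umod, Ccdc85b, Gm11175, Batf3, Max, the small Maf genes and the called tubular markers were added after their values were seen. Of the called AP-1 targets, 1 stands outside the rule and is not named, and 1 is not reported here.

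Alternatives were pseudocounts of 1 and 0.01, filters at 1 and 0.1 FPKM and none, quantile normalization, median centring, eBayes without trend, a replicate block, voom on recovered fragments and the omission of each library.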

Additional observations from a re-analysis of the deposited data

How the results depend on the processing

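With 3 libraries per group, several calls lay at the threshold, and fragments limit Fos and Fosb. The count of 379 called genes became 140 without the eBayes trend, 213 with the replicate block, 598 with voom and 158 to 357 when 1 library was left out. The called members (1, Klf6) became 0 without a filter, with median centring and without the trend. They became 2 with voom (Jun and Klf6) and 0 to 1 when 1 library was left out. At an unadjusted p under 0.05 by limma there were 4 or 5 members each time, beside 2058 of all 11723 tested genes in the main fit. The 12 called list genes became 7 without a filter, 3 without the trend, 6 with the replicate block and 5 to 9 when 1 library was left out.

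The log2 fold change of Klf6 stayed at -0.17 but was no longer called without a filter (adjusted p = 0.0689), with median centring (0.0505), without the trend (0.157) and with the replicate block (0.0932), and it was -0.20 to -0.15 when 1 library was left out. That of Jun was -0.26 to -0.25 with all libraries and was called with the replicate block (adjusted p = 0.0454) and with voom (0.0435). Jun was not called in the other 8 alternatives with all libraries or when 1 library was left out (-0.31 to -0.20). Estimates near 0 changed sign: Atf3 was 0.00 with median centring, and when 1 library was left out Atf3 ran from -0.05 to 0.03, Junb from -0.04 to 0.01, Jund from -0.09 to 0.03 and Stat3 from -0.06 to 0.04. The family shares kept their direction in every alternative run. The cause of these changes was not tested.

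Over all tested genes, same-numbered libraries had correlations of -0.016, -0.004 and -0.043 in their deviations from the group means. A value over all genes cannot decide whether single genes vary together by number. Among the members, Fosl1, Fosl2, Jun, Jund and Egr1 were highest in library 1 of both groups. Jun, Junb, Jund, Myc and Klf6 were lowest in library 2 of both. Junb, Atf3, Myc and Klf6 were highest, and Fos and Egr1 lowest, in libraries of different number. Whether same-numbered libraries belong together, as the replicate block above assumes, was not tested.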
